A study of Caenorhabditis elegans with 2 samples.

Results

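The regions described here are peaks of the Caenorhabditis elegans protein DVE-1 that lie between a pair of neighbouring genes transcribed away from each other. A peak was a member when its summit, the position of highest enrichment, lay on chromosome II, III, IV or V outside every annotated protein-coding gene, the nearest such gene on the left was on the minus strand, the nearest on the right was on the plus strand, and less than 2000 bp separated them. This held for 577 of the 4635 peaks on these chromosomes (12.4%, 95% exact binomial interval 11.5 to 13.4) and of the 7262 peaks in all. The members fell in 534 gaps and flank 1068 genes.

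The samples were whole hermaphrodite larvae of the L4 stage of strain OP398, with the genotype unc-119(tm4063) III; wgIs398. The transgene wgIs398 makes DVE-1 with GFP and FLAG at its C-terminus, and an antibody against GFP was used for chromatin immunoprecipitation after sonication. There was 1 group with 2 biological replicates from separate biosamples, both carrying the transgene and both called against the same control library, which was not analysed here. There was no second condition among the samples analysed, so comparisons are between members, other peaks and gaps, and signal from whole animals does not say which tissue it came from.

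DVE-1 is a homeodomain protein related to the SATB chromatin organisers and is best known from the unfolded protein response of mitochondria, in which nuclear genes for mitochondrial chaperones are induced when mitochondria are stressed. Between divergent genes, 1 stretch of DNA holds the promoters of both, so a factor bound there cannot be assigned to either gene by position. Many worm genes are trans-spliced, meaning that a leader RNA replaces the original start of the transcript. Their annotated 5′ end can therefore lie downstream of the place where transcription begins.

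Sequences are shown for the 5 strongest members and for the members beside the mitochondrial chaperone genes hsp-60 and hsp-6, because the centre of these regions differs in base composition from its surroundings. They are from the RefSeq genome sequence WBcel235 (ce11), plus strand, 200 bp around the summit and trimmed to the gap. Capitals mark the 40 bases centred on the summit. In order of signal they are chrIV:4749969-4750168, chrIV:654825-655024, chrIII:10759143-10759306, chrII:8561368-8561535, chrIV:13240652-13240774, chrIII:1619032-1619231 and chrV:4827070-4827269.
rpl-20/Y17G9B.5: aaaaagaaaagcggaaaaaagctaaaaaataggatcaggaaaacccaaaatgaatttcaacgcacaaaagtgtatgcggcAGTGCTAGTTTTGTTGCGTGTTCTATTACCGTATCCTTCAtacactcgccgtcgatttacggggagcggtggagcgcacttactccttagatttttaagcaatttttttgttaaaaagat
rpl-15/K11H12.8: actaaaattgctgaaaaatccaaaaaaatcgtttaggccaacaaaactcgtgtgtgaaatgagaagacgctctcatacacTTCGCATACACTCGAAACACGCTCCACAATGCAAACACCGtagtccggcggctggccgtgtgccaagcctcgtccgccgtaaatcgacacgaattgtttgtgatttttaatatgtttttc
K01G5.10/tasp-1: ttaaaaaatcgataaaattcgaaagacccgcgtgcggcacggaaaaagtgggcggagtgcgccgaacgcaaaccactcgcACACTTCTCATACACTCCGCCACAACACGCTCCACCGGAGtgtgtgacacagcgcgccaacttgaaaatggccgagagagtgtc
iff-2/F54C9.14: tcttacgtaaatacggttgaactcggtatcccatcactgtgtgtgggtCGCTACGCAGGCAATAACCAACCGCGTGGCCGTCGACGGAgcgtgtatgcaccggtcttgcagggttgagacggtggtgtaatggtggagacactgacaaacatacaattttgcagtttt
rpl-12/lin-54: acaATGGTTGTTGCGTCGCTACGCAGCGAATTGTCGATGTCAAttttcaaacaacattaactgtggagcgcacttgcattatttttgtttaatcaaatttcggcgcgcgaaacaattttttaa
Y22D7AL.10/hsp-60: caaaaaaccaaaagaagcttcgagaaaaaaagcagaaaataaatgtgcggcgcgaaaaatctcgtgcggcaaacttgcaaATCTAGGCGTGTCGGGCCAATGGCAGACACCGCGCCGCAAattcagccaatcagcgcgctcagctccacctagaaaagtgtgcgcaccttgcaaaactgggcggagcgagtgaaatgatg
hsp-6/C37H5.5: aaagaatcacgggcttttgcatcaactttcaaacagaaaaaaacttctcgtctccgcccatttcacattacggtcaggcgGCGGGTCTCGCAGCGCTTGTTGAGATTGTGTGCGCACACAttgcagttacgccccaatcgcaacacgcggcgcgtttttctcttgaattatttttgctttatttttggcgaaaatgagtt
In each of these 7 windows the capitals hold more G and C than the lower-case bases. The margin was widest at hsp-60, with 65.0% in the capitals and 46.9% around them, and at iff-2, with the same 65.0% and 46.9%. It was narrowest at rpl-20, with 40% in the capitals and 38.1% around them.

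Divergent gaps under 2000 bp held a summit more often than other gaps of that width. A summit lay in 534 of 1899 such gaps (28.1%, 95% exact interval 26.1 to 30.2), in 727 of 5406 gaps between genes on the same strand (13.4%, 12.5 to 14.4), and in 50 of 1568 gaps between convergent genes (3.19%, 2.38 to 4.18). The 28.1% is the background for every group of gene pairs below. It rests on the peak list and the annotation, being 18.0% with the strongest 3631 optimal peaks and 13.2% where gaps are taken between all annotated genes. With the 7262 strongest regions of each replicate taken alone, the shares were 28.0 ± 0.71% of divergent, 12.9 ± 0.14% of same-strand and 3.41 ± 0.41% of convergent gaps (SD, n = 2). The order was the same in both replicates, and the differences were many times larger than their spread.

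A divergent gap has 2 gene starts and a same-strand gap 1, and counted per gene start the pooled values were close. There were 15.2 summits per 100 annotated 5′ ends in divergent gaps and 14.7 per 100 in same-strand gaps under 2000 bp. By width the direction changed. Divergent gaps were higher under 250 bp (8.97 against 5.9) and from 250 to 500 bp (19.5 against 16.1), and lower from 500 to 1000 bp (14.1 against 15.9) and from 1000 to 2000 bp (16.6 against 23.6). Per length, divergent gaps held 39.3 summits per 100 kb, same-strand gaps 23.1 and convergent gaps 6.25. Same-strand neighbours in worms include genes of 1 operon, where the downstream gene often has no promoter of its own.

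The width of the divergent gap mattered most between 250 and 500 bp. There 158 of 406 gaps held a summit (38.9%, 34.1 to 43.8), against 17.9% of gaps under 250 bp, 27.2% of gaps from 500 to 1000 bp and 26.7% of gaps from 1000 to 2000 bp. Same-strand gaps had no such maximum, with 5.9%, 16%, 15.1% and 19% in the same 4 widths, and convergent gaps under 2000 bp had at most 5.03% in any of them. Gaps with a member had a median width of 626 bp and gaps without a summit one of 684 bp. Just inside the limit, 62 of 216 gaps from 1500 to 2000 bp held a summit (28.7%), and just outside it 43 of 155 gaps from 2000 to 2500 bp did (27.7%). The median signals on either side of the limit were 68.3 and 70, and the median distances to the nearer 5′ end 302 and 292 bp.

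**Figure D1:**
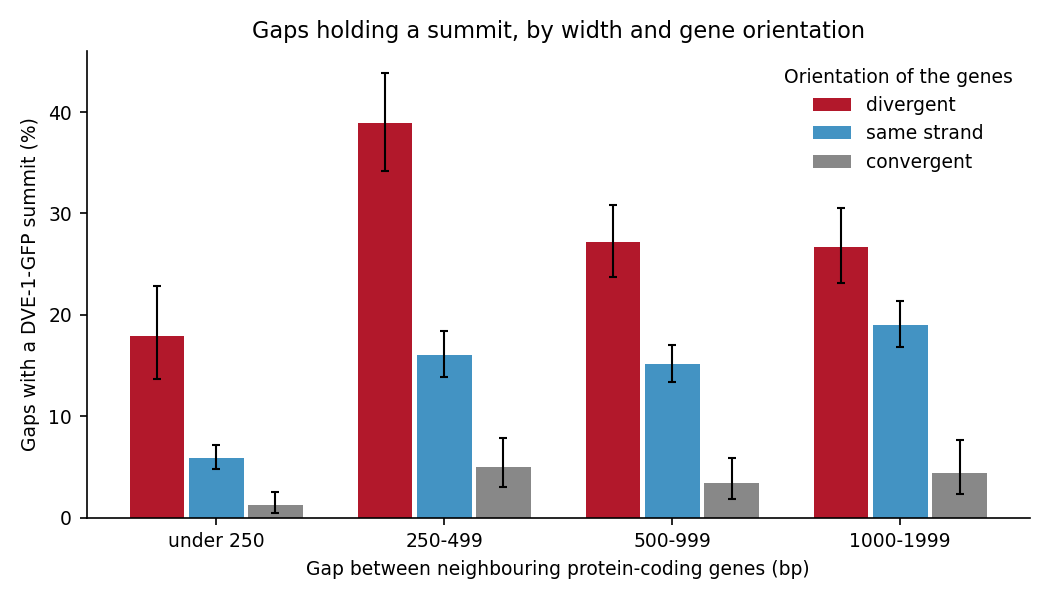
The share of gaps with at least 1 summit, in percent, by width of the gap in bp and orientation of the flanking genes on chromosomes II to V. Bars are shares and lines 95% exact binomial intervals; the divergent bar is the tallest at each width and reaches 38.9% between 250 and 500 bp.

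Chromosome III stood apart. A summit lay in 156 of its 369 short divergent gaps (42.3%, 37.2 to 47.5), against 29.4% on IV, 23.7% on II and 22.3% on V. Each replicate alone gave 38.8% and 41.2% on III, and no more than 28.9% on any of the other 3 chromosomes. On III the share was 40.8% in the central 50% of the chromosome's length and 44.7% in the rest, while on V it was 26.1% in the centre and 18.1% in the rest.

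The limit on the gap width bounds the distance of a summit from a gene start. No random placement was set beside the distances, so closeness beyond that bound was not tested. The median member was 161 bp upstream of the nearer annotated 5′ end (quartiles 88 and 254 bp) and 492 bp upstream of the farther one. In 475 members (82.3%) the nearer end was within 300 bp, as it must be in gaps under 500 bp, and in 191 (33.1%) both ends were. Neither side was preferred, with the left gene nearer in 286 members and the right gene in 291. The summits of each replicate gave medians of 164 and 162 bp to the nearer end.

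Where the summit fell depended on the room between the genes. In gaps under 250 bp the median distances to the nearer and farther end were 47 and 135 bp, in gaps of 250 to 500 bp they were 133 and 248 bp, and in gaps of 500 to 1000 bp they were 192 and 514 bp. In gaps of 1000 to 2000 bp they were 250 and 1083 bp, so both distances grew with the width, the farther one more. In gaps of 250 to 500 bp, 57.6% of the summits lay in the central 33.3% of the gap, against 20.4% in gaps of 1000 to 2000 bp. In same-strand gaps under 2000 bp the median summit was 222 bp upstream of the next gene's 5′ end, and 58.0% of the summits were nearer to that end than to the 3′ end of the gene before it.

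**Figure D2:**
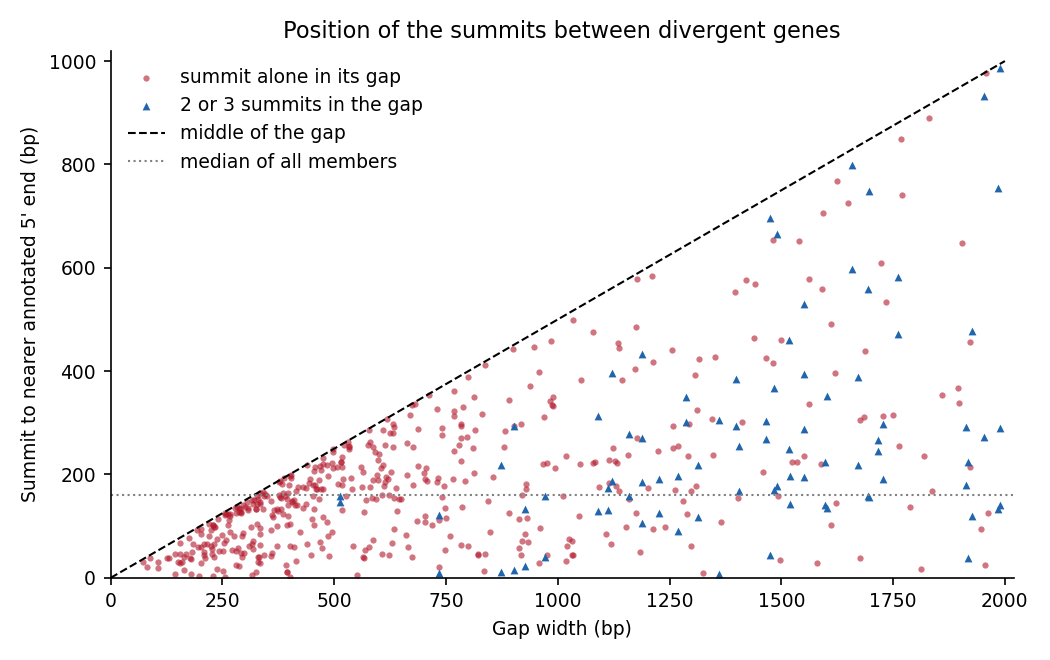
Distance in bp of each of the 577 summits to the nearer annotated 5′ end, against the width of its gap in bp. Circles are summits alone in their gap, triangles are summits in gaps with 2 or 3, the dashed line is the middle of the gap and the dotted line the median of 161 bp; points leave the dashed line as gaps widen.

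The summits of the 2 replicates lay near each other, in part because a match within 100 bp was required. In the 554 members found in both, meaning a summit within 100 bp in each replicate's relaxed list of 30000 regions, the replicate summits were a median of 19 bp apart (quartiles 9 and 37.8 bp). The same gene was the nearer one in both replicates at 514 of these (92.8%). Where the pooled summit was more than 50 bp from the midpoint of the gap this held for 404 of 405 members, and where it was closer to the midpoint for 110 of 149. A replicate summit had to lie within 100 bp of the pooled one. A member more than 100 bp from the midpoint therefore could not have a different nearer gene in a replicate. The 404 of 405 was thus in large part fixed by the match rule, and it is no separate evidence for the nearer gene.

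Most gaps held a single summit. There were 492 members alone in their gap, 41 gaps with 2 summits and 1 with 3. In 34 of these 42 gaps the outermost summits lay on opposite sides of the midpoint. The spacing between them had a median of 791 bp and ran from 200 to 1656 bp. The first summit lay a median of 192 bp from the left gene and the last 261 bp from the right gene.

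The pair ntl-11, for a subunit of the CCR4-NOT complex, and Y73F8A.27 carried a pair of strong peaks. In a gap of 1313 bp, one summit was 117 bp from ntl-11 with a signal of 278 and the other 218 bp from Y73F8A.27 with a signal of 244. Relative to the median of each replicate at the optimal peaks, the first stood at 4.24 in replicate 1 and 4.10 in replicate 2, and the second at 3.69 and 3.54. At lin-9, for a subunit of the DREAM complex, and unc-32, for a subunit of the vacuolar ATPase, the 2 peaks were unequal. The one 170 bp from lin-9 had a signal of 285, against 56.4 for the one 367 bp from unc-32. The gap with 3 summits, between scyl-1 and lap-2, was also the widest at 1990 bp. Its outer peaks had signals of 121 and 124, at 141 bp from scyl-1 and 289 bp from lap-2, and the middle one had 34.8. The next widest gaps were K08D8.6/K08D8.1 at 1985 bp, with 2 summits, and T22C8.4/sptf-2 at 1962 bp, with 1. The narrowest gaps with a member were trm-1/ints-2 at 73 bp, K07B1.7/try-5 at 81 bp and C01G10.10/C01G10.9 at 88 bp, with signals of 61.7, 49.7 and 55.6.

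Members were stronger than other peaks. The deposited signal, the peak caller's enrichment against the control, had a median of 75.6 in members (quartiles 52.9 and 123, range 34.8 to 805) and of 63.0 in the other 4058 peaks on these chromosomes. Divided by the median of each replicate across the optimal list, members stood at 1.14 in replicate 1 and 1.19 in replicate 2 (1.17 ± 0.035, SD, n = 2). The other peaks stood at 0.984 and 0.975 (0.979 ± 0.006). The groups' medians differed by more than the spread between replicates, while the individual peaks overlapped broadly. Peaks inside genes were lowest at 0.928 ± 0.004, and the other classes of gap lay between 0.999 ± 0.053 (long convergent) and 1.04 ± 0.014 (long same-strand). The strongest 10% of all optimal peaks took in 18.0% of members and 9.14% of the other peaks.

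Members were also better supported. In 462 of 577 (80.1%, 76.6 to 83.3) a summit lay within 100 bp among the 7262 strongest regions of both replicates, against 70.1% (68.7 to 71.5) of the other peaks. The background over all peaks on these chromosomes was 71.3%. Support and signal are not separate measures, since stronger peaks are more often among the strongest regions of a replicate. Across the 554 members found in both replicates, Spearman's rho between their signals was 0.82, taken across peaks that share both libraries and were selected on the pooled signal.

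Signal had no steady trend with the geometry of the gap, but it differed between widths. A rank correlation does not show a maximum at middle widths. Across the 577 members its Spearman's rho was −0.07 with the width of the gap and 0.06 with the distance to the nearer 5′ end. Peaks in gaps of 250 to 500 bp and 500 to 1000 bp had relative signals of 1.24 ± 0.034 and 1.29 ± 0.004, those in gaps of 1000 to 2000 bp 1.09 ± 0.046, and those in gaps under 250 bp 1.02 ± 0.067 (SD, n = 2). Summits alone in their gap had a median signal of 79.1, and summits with another in the gap 67.8.

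Of the 5 strongest members 4, and of the 20 strongest 7, were beside genes of the cytosolic ribosome or translation factor lists, against 34 of all 577 members (5.89%). The peak between rpl-20 and Y17G9B.5 (chrIV:4749901-4750234) had a signal of 805, with 12.7 times the median in replicate 1 and 11.5 times in replicate 2. Its summit lay 291 bp from rpl-20, a gene of the large subunit of the ribosome, and 171 bp from Y17G9B.5. The peak between rpl-15, another such gene, and K11H12.8 (chrIV:654760-655081) had a signal of 695, at 10.4 and 10.3 times the median. The third, between K01G5.10 and tasp-1, the worm gene for the protease taspase (chrIII:10759073-10759434), had a signal of 605, at 8.87 and 9.14 times the median. These 3 were ranked 2, 4 and 5 among all optimal peaks.

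Next came iff-2, which encodes the translation factor eIF5A, with F54C9.14 at a signal of 516 and 7.67 ± 0.07 times the median (SD, n = 2). The summit between rpl-12 and lin-54, for a DREAM subunit, lay 24 bp from rpl-12 and had a signal of 407, at 6.05 ± 0.28 times the median. The pairs from the sixth to the eleventh place had signals from 342 to 398. They were nhl-2/tag-340, drr-2/set-16, ska-3/rps-12, larp-1/wip-1, ifet-1/rps-1 and sec-61.G/F32D8.7. Here rps-12 and rps-1 encode proteins of the small ribosomal subunit, drr-2 a relative of the initiation factor eIF4H, ifet-1 an eIF4E-binding repressor of translation, set-16 a histone H3K4 methyltransferase and sec-61.G a subunit of the protein channel of the endoplasmic reticulum.

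The rest of the 20 strongest had signals from 269 to 293. They included mif-4/ipla-6, cct-8/Y55F3AR.2, lin-9/unc-32, K12H4.6/K12H4.5, ntl-11/Y73F8A.27, rheb-1/spk-1 and rocf-1/pqn-71. Also among them were eef-1A.1, for an elongation factor, with rfc-4, for a clamp loader of DNA replication, and Y22D7AL.10/hsp-60. The replicates agree within 0.41 on the log2 scale at each of the 20. Of the 20, 11 were on chromosome III, 6 on IV, 2 on V and 1 on II.

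**Figure D3:**
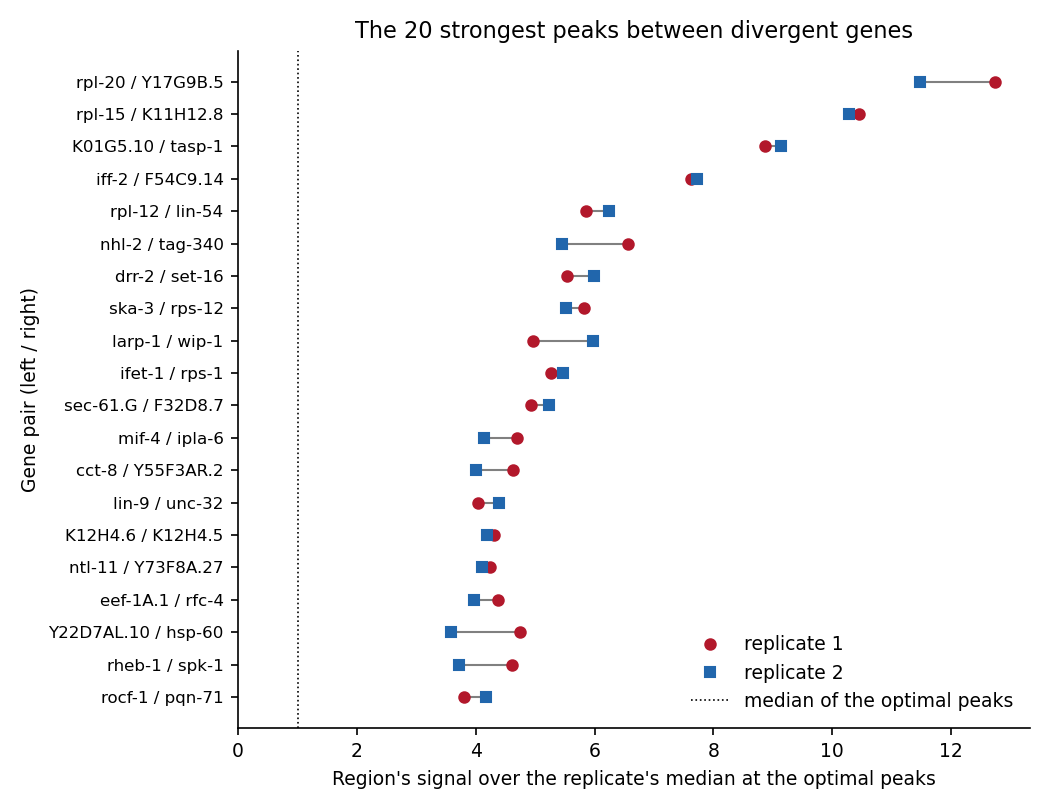
Signal of the 20 strongest members in each replicate, divided by the replicate's median across the optimal list, with gene pairs down the page in order of pooled signal. Circles are replicate 1 and squares replicate 2; the highest pair, rpl-20/Y17G9B.5, stands at 12.7 and 11.5 and the lowest, rocf-1/pqn-71, at 3.8 and 4.17.

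Some weaker members differed between the replicates. Of the 554 found in both, 40 differed more than 2-fold in relative signal, 30 of them higher in replicate 2 and 10 higher in replicate 1. The lowest ratios of replicate 1 to replicate 2 were at agl-1/pfs-2, with 0.245 and 1.69, his-72/rpt-6, with 0.156 and 0.966, and uaf-2/itsn-1, with 0.158 and 0.951. The highest were at aman-2/F58H1.3, with 0.995 in replicate 1 and 0.174 in replicate 2, at the weaker summit of npp-20/hxk-3, with 1.12 and 0.245, and at the weaker summit of srh-70/ceh-99, with 1.34 and 0.300. None of these 6 had a pooled signal above 73.2.

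Gene pairs were then grouped by 22 lists of gene symbols, and the share of each list's short divergent gaps that held a member was set beside the 28.1% of all such gaps. Gaps beside genes for cytosolic ribosomal proteins stood at 27 of 32 (84.4%, 95% exact interval 67.2 to 94.7), and the replicates alone gave 81.2% and 84.4%. The median signal of these members was 147, above the 75.6 of all members. Beyond those named, rps-0/rbg-3 had a signal of 205. The ribosomal gene was not usually the nearer one. In the 25 members with a ribosomal gene on 1 side only, it was the nearer gene in 9, and the summit lay a median of 340 bp from the ribosomal gene and 187 bp from its partner.

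All 4 short divergent gaps beside genes for mitochondrial chaperones and proteases held a member (exact interval 39.8 to 100%), in both replicates. The strongest was between Y22D7AL.10, for the relative of human HSP10 that caps the chaperonin, and hsp-60, for the mitochondrial chaperonin itself (chrIII:1619006-1619263), whose summit lay 203 bp from Y22D7AL.10 and 610 bp from hsp-60. Its signal was 274, at 4.75 times the median in replicate 1 and 3.59 times in replicate 2. Between hsp-6, for the mitochondrial HSP70, and C37H5.5 (chrV:4827083-4827276) the signal was 159, at 2.64 and 2.25 times the median, and the summit lay 410 bp from hsp-6 and 190 bp from C37H5.5. The other two were near the median peak. The member of ppgn-1, for a relative of the mitochondrial protease paraplegin, and tftc-1 had a signal of 65.6, and that of dli-1 and tin-9.2, for a small chaperone of mitochondrial import, had 59.5. In none of the 3 pairs with a listed gene on 1 side only was the listed gene the nearer one.

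Regulators of the mitochondrial stress response lay beside 3 short divergent gaps, of which 1 held a member. This was F29B9.11/jmjd-1.2, with jmjd-1.2 for a histone demethylase known to act in that response, with a signal of 156 and relative signals of 2.15 and 2.46. The gaps of baz-2/ZK783.7 and ril-1/hda-1 held no summit, nor one among the 30000 relaxed pooled regions, while the strongest regions of each replicate alone gave 66.7% of the 3 gaps. Of the endoplasmic reticulum stress list 1 of 4 gaps held a member, pdi-1/C14B1.2, beside a gene for a protein disulfide isomerase, with a signal of 133, and each replicate alone gave 50%.

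Of the other lists, 5 had an interval wholly above the background. Cytosolic chaperone genes had a member in 10 of 13 gaps (76.9%, 46.2 to 95), with the highest signals at the chaperonin subunit genes cct-8 (287) and cct-1 with mig-5 (241), at hsp-110 with rpn-3 (242) and at cct-7 with T10B5.4 (147). Proteasome genes had one in 10 of 15 gaps (66.7%, 38.4 to 88.2), led by rpn-3, pbs-1 with K08D12.3 (134) and rpn-9 with T06D8.9 (113). Oxidative phosphorylation genes also had 10 of 15. Their strongest members were jmjd-4/mev-1 (170), where mev-1 encodes a subunit of succinate dehydrogenase, C34E10.10/atp-2 (160), for a subunit of ATP synthase, rde-4/cox-14 (105) and ddx-15/ucr-1 (94.4). Splicing genes had 13 of 20 (65.0%, 40.8 to 84.6), led by rsp-2/rsp-1 (208), a pair of genes for SR proteins, bath-42/prp-8 (160), clu-1/prp-40 (144) and snu-13/rsp-7 (129). Mitochondrial ribosomal genes had 12 of 21 (57.1%, 34.0 to 78.2), led by mrps-7/Y57G11C.3 (199), rpl-28/mrpl-49 (147), Y39A1A.22/mrpl-12 (128) and mrpl-45/Y119D3B.12 (108). Most gaps of this last list are on chromosome III, where 42.3% of all short divergent gaps held a member. There it had 7 of 11 (63.6%, 30.8 to 89.1), an interval that takes in the share of that chromosome.

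For several lists the interval took in the background. Translation factor genes had 7 of 14 gaps (50%), with iff-2, eef-1A.1, ctf-4/eef-1G (254) and eef-1B.1/aco-2 (171) strongest. Vacuolar ATPase genes had 4 of 8, with unc-32, vha-8 (177) and vha-1 (169) strongest, and aminoacyl-tRNA synthetase genes 5 of 11, led by mars-1 (117), kars-1 (109) and aars-1 (106). Nuclear hormone receptor genes had 14 of 31 (45.2%, 27.3 to 64.0), led by H12C20.7/nhr-68 (259), dnj-19/nhr-47 (195), nhr-80/H10E21.1 (128) and nhr-50/nhr-63 (125). On chromosome V, where 22.3% of all short divergent gaps held a member, they had 12 of 26 (46.2%, 26.6 to 66.6). RNA polymerase and general factor genes had 4 of 9, the strongest at mdt-19 (172), for a Mediator subunit. Homeobox genes had 3 of 8, ubiquitin genes 4 of 13, the strongest at ubq-2/frg-1 (153), and cell cycle and replication genes 3 of 11, the strongest at dhs-11/orc-1 (70).

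Symbols beginning with sr and C-type lectins had intervals wholly below the background. Genes whose symbols begin with sr, mostly chemoreceptors but with some unrelated genes, had a member in 17 of 195 gaps (8.72%, 5.16 to 13.6). Those members were not weak as a group, with a median signal of 80.2, and the strongest were C42D4.13/srlf-7 (253), srh-282/sma-10 (248), W01D2.3/srt-11 (184) and srh-70/ceh-99 (176). C-type lectin genes had 6 of 48 (12.5%, 4.73 to 25.2), the strongest at W02D7.8/clec-218 (80.0). Cuticle collagen genes had 5 of 24 (20.8%), the strongest at col-38/rpl-5 (144), and neuropeptide and insulin genes had 0 of 6 (interval up to 45.9%). Chromosome V, where 22.3% of all short divergent gaps held a member, has most of the gaps of both leading lists. There, symbols beginning with sr had a member in 10 of 139 gaps (7.19%, 3.50 to 12.8) and C-type lectins in 4 of 27 (14.8%, 4.19 to 33.7), an interval that takes in the share of that chromosome.

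Histone genes were split. Of 31 short divergent gaps beside them 5 held a member (16.1%, 5.45 to 33.7), but 3 of these were strong peaks between 2 histone genes. They were his-4/his-3 with a signal of 241, his-60/his-59 with 234 and his-61/his-62 with 228. Their relative signals were 3.41 and 3.82, 3.07 and 3.74, and 2.96 and 3.72 in replicates 1 and 2, so each stood higher in replicate 2. Worm histone genes exist in near-identical copies, and how reads shared by several copies were treated is not given in the sources used here, so the values of these pairs and of hsp-16.2/hsp-16.41 (82.3) are uncertain. The histone gaps called empty, and with them the 16.1%, are uncertain for the same reason. Of the empty ones, 1 held a summit in the relaxed pooled list. The empty gaps hsp-16.1/hsp-16.48 and hsp-16.48/hsp-16.1, counted in the cytosolic chaperone share, are also uncertain.

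**Figure D4:**
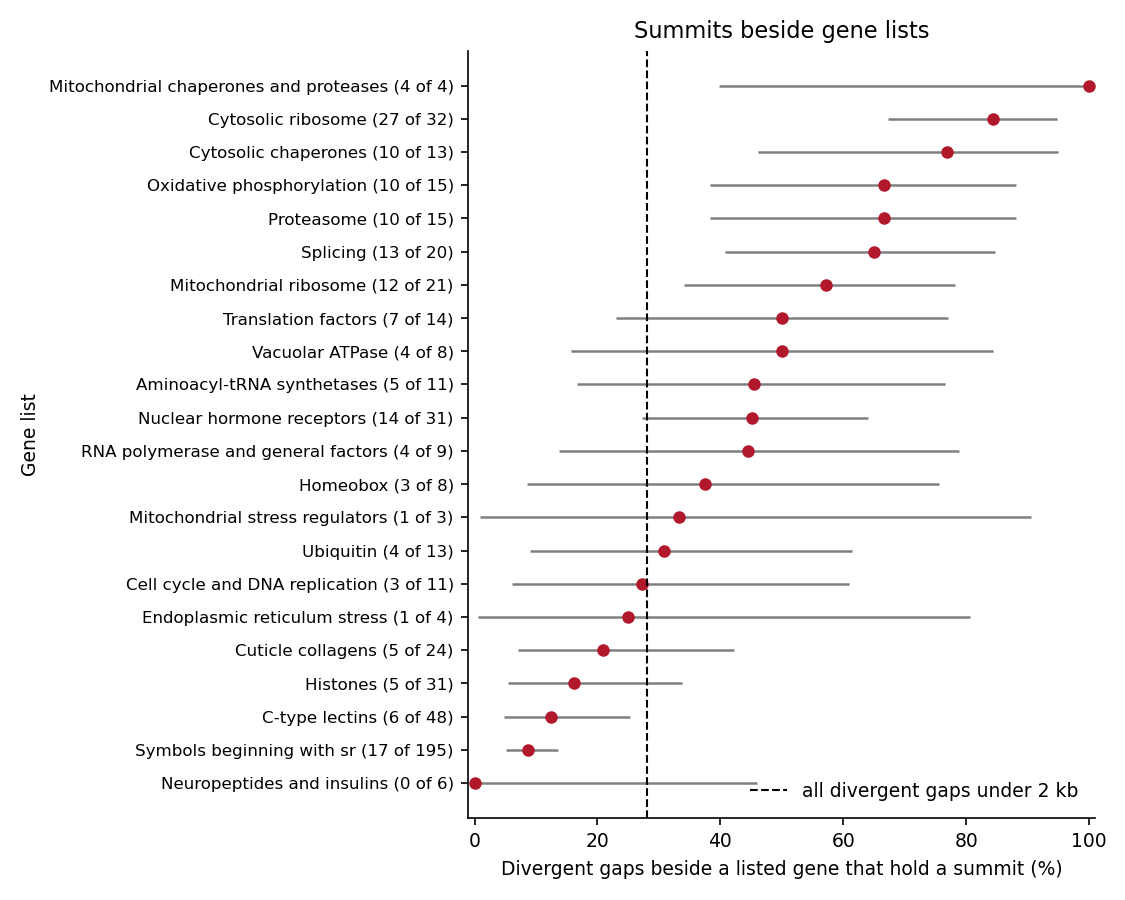
Share of the short divergent gaps beside genes of each list that held a member, in percent, with the counts in brackets. Points are shares, lines 95% exact binomial intervals and the dashed line the 28.1% of all such gaps; the cytosolic ribosome stands at 84.4% and symbols beginning with sr at 8.72%.

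The centre of the members was rich in G and C and its flanks poor. The 40 bp around the summit held 47.5% G and C on average, against 33.2% at 40 to 160 bp on either side. With each replicate's own summits the difference was 12.9 and 14 percentage points (13.4 ± 0.77, SD, n = 2). The centre was richer than its own flanks in 490 of 577 members (84.9%). In the other peaks on these chromosomes the centre held 42.0% and the flanks 36.3%, a difference of 5.64 percentage points. Summits in short same-strand gaps, which are among these, had 42.1% and 33.5%, a difference of 8.60 points. That was near the difference of 9.94 points in members in gaps of 1000 to 2000 bp. At the midpoints of divergent gaps without a summit there was none to speak of, with 33.6% in the centre and 34.0% in the flanks. At the midpoints of gaps with a member the values were 36.5% and 33.9%. The contrast with empty gaps was thus much smaller when both were centred on midpoints.

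Because the centre is narrow, the whole window shows less of this. Over 200 bp the median was 39.0% G and C in members, 38.5% in the other peaks and 36.5% in short same-strand gaps. It was 34.0% at the midpoints of gaps with a member and 33.0% at the midpoints of gaps without a summit. These midpoint windows, also used for the words below, covered 508 of 534 gaps with a member and 1199 of 1365 without a summit. All 577 member windows were kept, of which 71.9% lay wholly inside the gap, so the sets are not fully alike. The dinucleotide CG separated members from other peaks more clearly, but only in gaps under 1000 bp. Its observed count over that expected from C and G had a median of 1.34 in members, 1.02 in the other peaks and 1.12 in short same-strand gaps. By width, members stood at 1.46 under 250 bp, 1.48 from 250 to 500 bp and 1.39 from 500 to 1000 bp. From 1000 to 2000 bp they stood at 1.11, near the short same-strand value. The ratio was 1.29 at the midpoints of the gaps that held a member and 1.04 at the midpoints of gaps without a summit. Members lay a median of 131.5 bp from the midpoint, so many of these 200 bp windows overlap the summit windows. Whether the high ratio reaches beyond the summit window was therefore not tested. Signal was higher in members richer in G and C, with a Spearman's rho of 0.41 over 577 members (0.43 with replicate 1 and 0.39 with replicate 2). The part of the base composition in the measured enrichment was not tested.

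The 2 strands differed on either side of the summit. Read on the plus strand, the flank on the left held more A than T, with T minus A at −7.53 percentage points, and the flank on the right more T than A, at 7.72 points. Each flank was thus rich in T on the strand that is coding for the gene on its side. The step from left to right was 15.2 points with the pooled summits and 14.8 ± 0.58 points with those of the replicates (SD, n = 2). It was 7.55 points at the midpoints of gaps with a member and 3.44 points at the midpoints of gaps without a summit. Runs of T before gene starts are a known feature of worm promoters. In short same-strand gaps, turned so that the next gene lies on the right, T exceeded A on both sides, by 3.26 points before the summit and 8.90 after it.

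The mirror image was clearest in gaps of 250 to 500 bp, with a step of 20.2 points, and weakest in gaps of 1000 to 2000 bp, with 9.43. In those wide gaps the excess of T lay on the side of the nearer gene, at 10.5 points, while the side of the farther gene had an excess of 1.02 points in the same strand and thus no mirror image. In narrow gaps the flanks reach into the genes themselves, and 71.9% of the 200 bp windows used below lay wholly inside the gap.

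**Figure D5:**
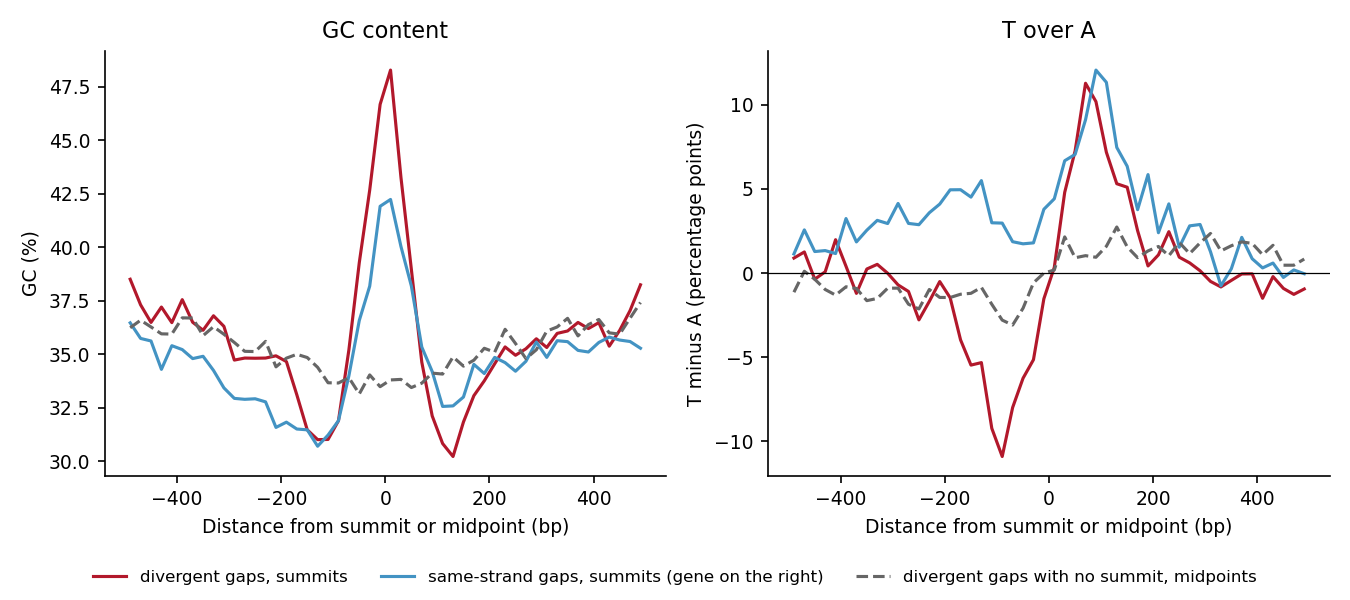
G and C content in percent, on the left, and T minus A in percentage points, on the right, in 20 bp steps by distance in bp from the summit or gap midpoint. The red line is the members on the plus strand, blue the summits in short same-strand gaps with the next gene on the right, and the dashed line the midpoints of divergent gaps without a summit; the red line peaks at 48.3% G and C and changes sign in T minus A at the summit.

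Exact matches to 11 short words were counted on either strand of the 200 bp windows. TGATAA and CACGTG were rarer in members than in the other peaks, and GCGCGA and CCGCCC more frequent, with intervals that did not overlap. For each of the remaining words the intervals of members and other peaks overlapped. The GATA-factor core TGATAA was in 27.7% of members (24.1 to 31.6), 45.4% of the other peaks (43.8 to 46.9) and 18.2% of the midpoints of gaps without a summit. Its share was 28.8% of members in gaps under 250 bp, 17.1% in gaps of 250 to 500 bp, 25.6% in gaps of 500 to 1000 bp and 38.2% in gaps of 1000 to 2000 bp, and in divergent gaps over the limit it reached 46.0%. Members with TGATAA had a median signal of 66.7 and those without 82.3, and none of the 20 strongest had it.

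Words of C and G went the other way. GCGCGA was in 9.71% of members (7.41 to 12.4), 4.58% of the other peaks and 3.50% of the midpoints, and CCGCCC in 11.4%, 6.88% and 4.50%. Among members in gaps of 1000 to 2000 bp, GCGCGA was in 4.19%, no more than in the other peaks, and CCGCCC in 11.0%. The 9-letter GAGACGCAG, known from earlier results of these data, was as frequent in members (9.71%) as in the other peaks (10.1%), against 1.17% at the midpoints. Its matches lay a median of 26.5 bp from the summit, and 49.2% were within 25 bp. Since the word was taken from results of these same data, neither its excess over the midpoints nor its closeness to summits is independent support. GAGAGA was in 28.2% of members, 33.3% of the other peaks and 11.5% of the midpoints, and CACGTG in 5.72%, 9.66% and 3.42%. TGACGT stood at 12%, 9.91% and 6.09%.

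The 4 remaining words, all but ATTGG made of A and T alone, had lower shares at summits than at midpoints. TATAAA was in 17.3% of members, 18.9% of the other peaks and 28.4% of the midpoints. TAATTA, the core bound by many homeodomains, was in 6.93% of members, 5.89% of the other peaks and 11.4% of the midpoints. TTTTTTTT was in 17.5%, 15.4% and 24.4%, and ATTGG, the reverse complement of the CCAAT box, in 29.1% (25.4 to 33.0), 30.8% and 34.3% (31.6 to 37.0), where the intervals of members and midpoints overlap. Overlapping matches of different words, such as GAGACGCAG and GAGAGA, were each counted, and a match is a description of letters and not a binding site.

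The pair drr-2/set-16 shows GAGACGCAG more than once near 1 summit. It was chosen after its values were seen, to show these words in place. In the window chrIII:13643633-13643832 of the same genome, capitals mark the matches to the motifs above.
drr-2/set-16: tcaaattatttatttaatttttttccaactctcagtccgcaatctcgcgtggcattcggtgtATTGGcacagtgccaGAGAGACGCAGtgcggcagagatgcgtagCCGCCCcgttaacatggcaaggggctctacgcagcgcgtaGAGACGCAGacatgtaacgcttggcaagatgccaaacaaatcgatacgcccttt
Its signal was 390, with relative signals of 5.54 and 5.99, and the summit lay 163 bp from drr-2 and 183 bp from set-16.

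Non-coding genes were also looked for. A tRNA gene was within 100 bp of the summit in 5 members (0.867%), against 2.42% of the other peaks, and an annotated gene of the class ncRNA in 64 (11.1%), against 8.33%.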

How the data were processed

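The files used are deposited peak lists in narrowPeak format on the ce11 assembly. Each of the 2 replicates and their pool had a relaxed list of 30000 regions. The optimal list of 7262 peaks was drawn from these by the irreproducible discovery rate, per the text deposited beside the lists. The deposited signal of a region is its enrichment over 1 control alignment that served every list. No aligner, peak caller, threshold or treatment of reads with several matches is given in the sources used here. Read counts are not in these lists, so the depth is unknown, and intervals cover counting error over peaks or gaps.

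A summit was column 2 plus column 10. Gaps were taken between the merged spans of the 19973 protein-coding genes on nuclear chromosomes in Ensembl release 115 (WBcel235), whose names were matched to the lists by symbol, and sequence came from the RefSeq genome of the same build. Chromosome lengths fit the lists, whose regions end at least 106 bp inside them. Since the scale of the signal differs between lists, replicates were compared after division by each one's median over the optimal peaks. An optimal peak was found in a replicate when a summit lay within 100 bp. Shares have 95% exact (Clopper-Pearson) binomial intervals, and values over replicates are mean ± SD. No test gave a p-value.

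The members, the 22 gene lists, the 11 motifs and the settings were chosen with earlier results of these data known. Named are the 20 strongest members, all members of the lists of mitochondrial chaperones and proteases, mitochondrial stress regulators and endoplasmic reticulum stress, up to 4 of each other list, the 3 highest and 3 lowest replicate ratios, the 3 narrowest and widest gaps and those with most summits. The pairs carrying CGCTCCAC, the sequence of drr-2/set-16, lin-9/unc-32 and ntl-11/Y73F8A.27 as gaps with 2 summits, and hsp-16.2/hsp-16.41 were singled out later, with their values known. Alternatives covered the gap limit, the peak set, each replicate alone, the region's midpoint, all annotated genes, the window and the match distance. The calculations were tested on simulated data. Python 3.11.15 was used with numpy 2.4.6, pandas 2.3.3, scipy 1.17.1 and matplotlib 3.10.9.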

Additional observations from a re-analysis of the deposited data

How the results depend on the processing

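No paired analysis was possible because there is 1 group, whose 2 replicates are set against each other. Taking the strongest 3631 optimal peaks left 353 members in place of 577, in 18.0% of the short divergent gaps, with 96.9% supported by both replicates, since weak peaks are left out. Their median distance to the nearer 5′ end was 165 bp, their signal 1.13 times that of the other peaks (1.2 with all peaks) and their median G and C content 40%. With all annotated genes in place of protein-coding ones the share of gaps fell to 13.2%, because non-coding genes add many gaps, and the distance was 147 bp, the signal ratio 1.16 and the G and C content 38.5%. A gap limit of 1000 bp gave a distance of 136 bp and a ratio of 1.26, and a limit of 3000 bp gave 174 bp and 1.17. Leaving out each replicate in turn gave distances of 162 to 164 bp, signal ratios of 1.21 to 1.22 and G and C contents of 38.5 to 39.0%. Windows of 100 and 400 bp gave 45% and 35%, as a narrow rich centre would by construction. A match distance of 50 bp lowered support to 72.4% of members. The region's midpoint in place of the summit changed none of these values by more than the spread between replicates or the interval. Of the 22 gene lists, 19 stayed on the same side of the background under all 5 settings tried. The share for endoplasmic reticulum stress, homeobox and ubiquitin genes crossed it in at least 1, the cause of which was not tested: without replicate 2 the homeobox share was 25%, against 37.5% with both, and the other two lists hold 4 and 13 gaps. The share of members with TGATAA minus that of the other peaks, −17.6 percentage points, ran from −23.2 to −13.3. Few gaps limit the lists and unknown depth limits the gaps called empty: 205 of the 1365 gaps without an optimal summit (15%) held one in the relaxed pooled list.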

Other observations

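An 8-letter word recurred among the strongest members, and it was picked after their sequences had been seen, as the word shared by most of the top 5. CGCTCCAC, or GTGGAGCG on the other strand, was in 4 of these 5, at rpl-20, rpl-15, K01G5.10/tasp-1 and rpl-12. Among the other 572 members it was in 17 (2.97%, 1.74 to 4.72), against 0.789% (0.540 to 1.11) of the other peaks and 0.751% (0.344 to 1.42) of the midpoints of gaps without a summit. Of these 17, 8 were beside genes of the ribosome, vacuolar ATPase, splicing or proteasome lists, which were picked from the 22 after the pairs were seen and lie beside 55 of all 577 members (9.53%). The 8 were ifet-1/rps-1, polh-1/rps-22, lin-9/unc-32, sqv-3/vha-1, pbs-1/K08D12.3, bath-42/prp-8, rsp-3/spin-4 and prp-19/K10D2.5. The pair fib-1/mut-15, with fib-1 for the nucleolar protein fibrillarin, also carried it, 5 bp from the summit. Since the word was picked in the strongest members, its share among those 5 supports nothing.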
